A study of Homo sapiens with 22 samples.

Results

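Exon usage of 6 genes of DNA repair and damage signalling, DDB2, FANCA, FANCI, MDC1, RAD52 and XRCC3, was described under knockdown of an RNA-binding protein and of both subunits of the m6A-writing enzyme. The genes were chosen by function and by having exonic bins in the authors' deposited table, with earlier results of these data known. Every row whose gene model carried exactly one of these names was taken. The 6 genes held 34 of the 2635 bins in the table and 6 of its 636 gene models. By its title, the table covers exons in "HC-m6A-containing genes". All listed bins are therefore bins of such genes, and a listed m6A site in each of the 6 genes follows from that limit. All cells were HEK293T, a human embryonic kidney line that carries the SV40 large T antigen, in the knockdown and control groups alike. The groups, with 2 RNA-seq libraries each, were HNRNPG knockdown KD1, HNRNPG knockdown KD2 and the wild-type controls of that series, then METTL3 knockdown, METTL14 knockdown and the wild-type controls of the METTL series. The sources used here give neither the agent used for each knockdown nor whether both libraries of each group were grown as separate cultures. A further 10 crosslinking libraries, whose titles name either HNRNPG or meRIP (input and IP), were not analysed here.

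HNRNPG, the product of the RBMX gene, binds RNA in the nucleus and influences which splice sites are used. METTL3 is the catalytic subunit and METTL14 the RNA-binding partner in the complex that places N6-methyladenosine (m6A) on nascent transcripts, and the study asked whether that mark guides HNRNPG to exons. The repair genes work at different kinds of damage. DDB2 finds ultraviolet lesions for nucleotide excision repair, FANCA and FANCI act on crosslinks between DNA strands, MDC1 gathers signalling proteins at broken chromatin, and RAD52 and XRCC3 serve recombination at double-strand breaks.

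Each value in the table is the authors' log2 ratio of control over knockdown for an exonic bin, a stretch of exon cut wherever an exon boundary of the gene model falls. The sign was turned here: above 0, the knockdown used the bin more than its control did. Such usage is measured against the other bins of the gene model, so a lower value in some bins goes with higher values in others and says nothing of the level of the gene. With neither values per library nor errors or p-values at hand, no change below has a replicate check, the depth is unknown and no test was possible. Changes of at least 0.5 in size on the log2 scale are counted as past the threshold. Coordinates are hg19, and whether a bin is coding or untranslated was not analysed here.

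Across the 34 bins, the largest group of changes was lower usage in METTL3 knockdown. There 14 bins (41.2%) were lower by at least 0.5, against 14.8% of all listed bins, and 1 bin (2.94%) was higher, against 7.63% of all listed bins. In HNRNPG KD1, 10 bins (29.4%) were past the threshold on the lower side, against 9.03% of all listed bins, and 0 on the higher side, against 6% of all listed bins. In HNRNPG KD2, 11 bins (32.4%) were lower and 2 (5.88%) were higher, against 13.9% and 7.78% of all listed bins. With adjoining bins merged into 21 stretches, 5 (23.8%) were lower in KD1, 5 (23.8%) in KD2 and 9 (42.9%) in METTL3 knockdown, against 8.4%, 13.2% and 14.1% of all 1857 stretches. In METTL14 knockdown 1 bin (2.94%) was lower and 0 higher, against 10.6% and 5.46% of all listed bins. Centred on the median of all bins, KD2 had 7 lower bins (20.6%), against 11.4% of all listed bins.

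Most of these counts belonged to DDB2, which had 18 of the 34 bins. It supplied 11 of the 14 lower bins in METTL3 knockdown, 9 of the 10 in KD1, 8 of the 11 in KD2 and the single one in METTL14 knockdown. The other 5 genes, with 16 bins, had 3 lower bins (18.8%) in METTL3 knockdown, 1 (6.25%) in KD1, 3 (18.8%) in KD2 and 0 in METTL14 knockdown, shares near those of all listed bins in METTL3, KD1 and KD2. Over all 34 bins the changes had a median of -0.11 in KD1, -0.31 in KD2, -0.29 in METTL3 knockdown and -0.03 in METTL14 knockdown, against -0.04, -0.06, -0.04 and -0.04 over all listed bins in that order. Without DDB2 the medians of the 16 bins were -0.07, -0.23, -0.22 and 0.03. Of these 16 bins, 75% were below 0 in KD1, 75% in KD2, 87.5% in METTL3 knockdown and 43.8% in METTL14 knockdown. Among all listed bins the shares below 0 were 54%, 56.8%, 53.4% and 56.2% in that order.

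**Figure D1:**
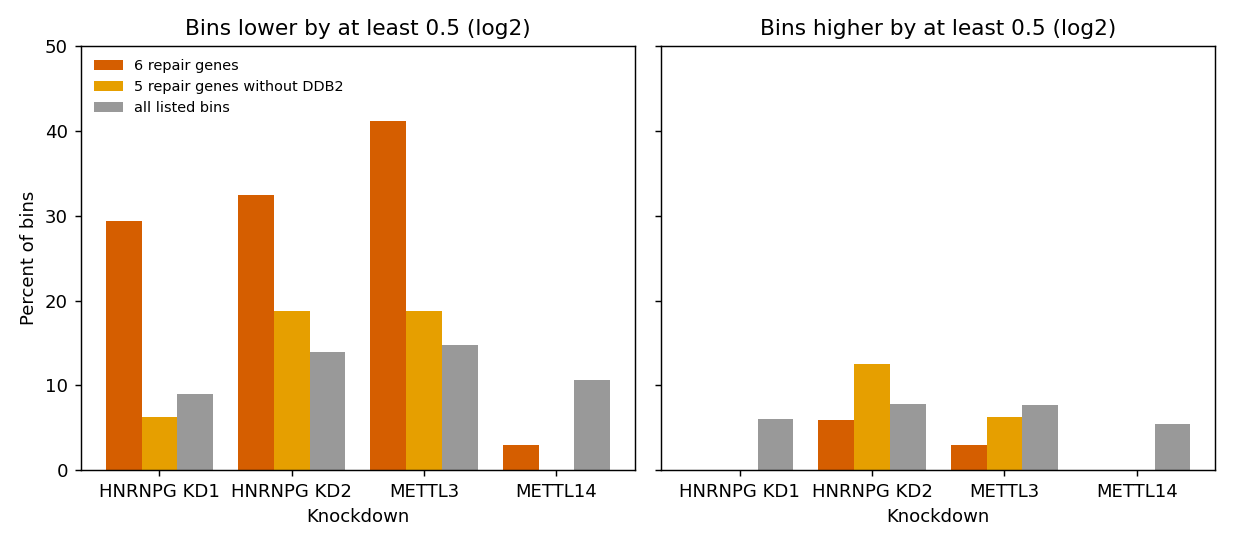
Percent of exon bins lower (left) and higher (right) by at least 0.5 on the log2 scale in each knockdown, for the 34 bins of the 6 repair genes, the 16 bins left without DDB2 and all 2635 listed bins. The bars of the 6 genes reach 41.2% on the lower side in METTL3 knockdown and drop to 18.8% without DDB2, near the 14.8% of all bins.

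DDB2 is the small subunit of the complex that recognises ultraviolet damage in chromatin and hands it to the excision machinery. Its listed bins lie on chromosome 11, plus strand, in 2 blocks with 18048 bp between them that hold no listed bin. The first block (bins 13 to 22, 47236663 to 47238600) has 6 bins near the 5′ end of the listed range, and the second (bins 38 to 59, 47256649 to 47261429) has 12. Every bin of the first block was higher in all 4 knockdowns, and 11 of the 12 bins of the second block were lower in KD1, KD2 and METTL3 knockdown.

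The first block starts with bin 13 (47236663 to 47236687, 25 bp), the one bin of the 6 genes that holds a listed m6A site, at 47236681. Among all 2635 listed bins, 96 hold such a site, so 1 in 34 is not unusual. The authors' deposited table gave bin 13 changes of 0.20 in KD1, 0.23 in KD2, 0.32 in METTL3 knockdown and 0.20 in METTL14 knockdown. In the adjoining bin 14 (37 bp) the values were 0.24, 0.27, 0.42 and 0.23 in this order of knockdowns, as the authors' deposited table lists them. Both were thus modestly higher in every knockdown. Bin 15 (90 bp), which adjoins bin 14, had 0.27, 0.29, 0.41 and 0.18 in the authors' deposited table. Bin 20 (47237887 to 47238023) had 0.30, 0.31, 0.42 and 0.08, according to the authors' deposited table. METTL14 knockdown was the lowest of the 4 here, and it was lowest again in bin 21. For bin 21, of 9 bp, the authors' deposited table gave 0.29, 0.27, 0.39 and 0.03. Bin 22 (47238418 to 47238600) had 0.14, 0.14, 0.39 and 0.18 per the authors' deposited table. The 6 values of the block spanned 0.14 to 0.30 in KD1, 0.14 to 0.31 in KD2, 0.32 to 0.42 in METTL3 knockdown and 0.03 to 0.23 in METTL14 knockdown.

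The second block opens with bin 38 (47256649 to 47256820), where usage in the knockdown was below control in every column. Its changes in the authors' deposited table were -0.47 in KD1, -0.47 in KD2, -0.99 in METTL3 knockdown and -0.34 in METTL14 knockdown. Bin 40 (47256964 to 47257272) had -0.61, -0.46, -1.18 and -0.39 in the same order, per the authors' deposited table. Bin 41 (47257273 to 47258936), the longest of the gene at 1664 bp, had -0.80, -0.56, -1.06 and -0.41 in the authors' deposited table. In linear terms the METTL3 value of bin 41 is a usage of 0.48 of control. Bin 42 (47259170 to 47259263) had -0.64, -0.68, -0.91 and -0.28 as the authors' deposited table lists it. For bin 43 (47259357 to 47259387) the authors' deposited table gave -0.69, -0.50, -1.14 and -0.57, the last being the only change past the threshold in METTL14 knockdown among the 6 genes. In each of bins 38 to 43 METTL3 knockdown had the lowest of the 4 values.

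Bin 48 (47260251 to 47260350) had the lowest DDB2 values in KD2 and METTL3 knockdown. The authors' deposited table gave it -0.97 in KD1, -1.57 in KD2, -1.57 in METTL3 knockdown and 0.002 in METTL14 knockdown. Its METTL3 value ranked 24 from the lowest of the 2635 listed bins, and its KD2 value ranked 33. Bin 49 (47260351 to 47260400), which touches it, lay on the other side with 0.12, 0.15, 0.32 and 0.07 in the authors' deposited table. It was the one bin of the second block with higher usage in KD1, KD2 and METTL3 knockdown, and its values were close to those of the first block.

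The last 5 bins of DDB2 adjoin each other. Bin 55 (47260743 to 47260767) had -0.96, -0.68, -0.81 and -0.35 across KD1, KD2, METTL3 and METTL14 knockdown in the authors' deposited table. Bins 56 and 57, of 1 bp each, had identical values in KD1 (-1.36), KD2 (-0.96) and METTL3 knockdown (-1.07) and -0.38 and -0.34 in METTL14 knockdown in the authors' deposited table. The KD1 values of bins 56 and 57 were the lowest of the gene in that knockdown. Bin 58 (47260770 to 47260789) had -1.18, -1.05, -0.81 and -0.26, as listed in the authors' deposited table. Bin 59 (47260790 to 47261429), the 3′ end of the listed range, had -0.14, -0.39, -0.53 and -0.20 in the authors' deposited table. This bin of 640 bp was nearer to 0 than its neighbours in every column. In RefSeq's GRCh38 annotation the next protein-coding gene downstream is ACP2, on the opposite strand, and the sources used here do not say whether the authors' counting used strand.

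**Figure D2:**
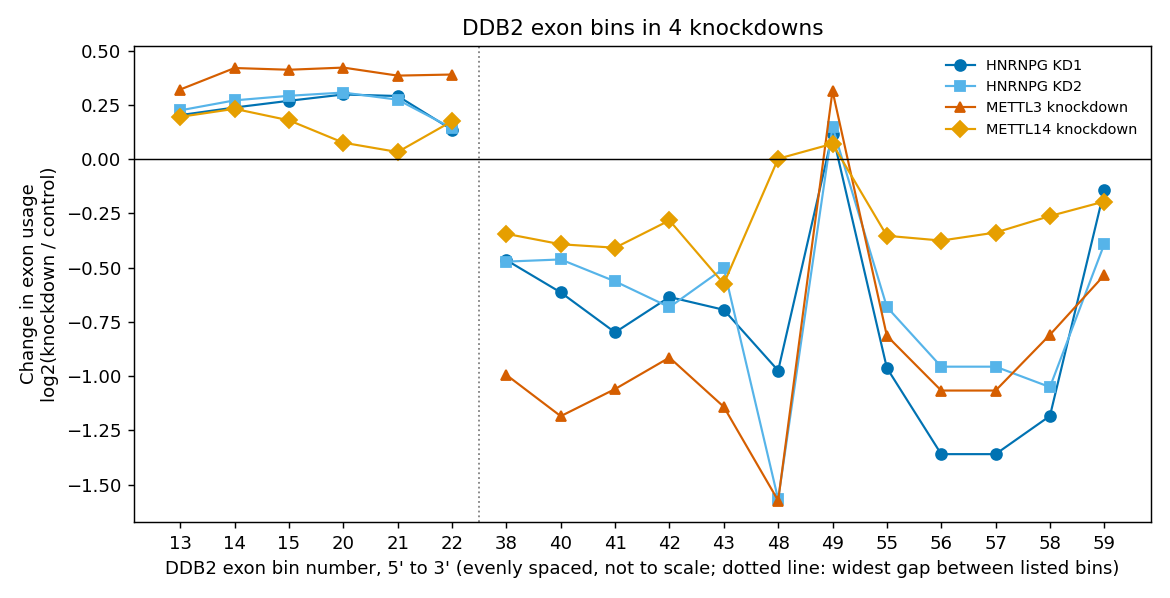
Change in usage, log2 of knockdown over control, of the 18 listed DDB2 bins in 5′ to 3′ order for HNRNPG KD1 and KD2 and for METTL3 and METTL14 knockdown; lines join neighbouring listed bins, and the dotted line marks the gap of 18048 bp. The 6 bins left of it are above 0 in all 4 knockdowns, and right of it all but bin 49 are below 0 in KD1, KD2 and METTL3 knockdown, with METTL14 values between -0.57 and 0.07.

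By block, the DDB2 medians were 0.25 and -0.75 in KD1, 0.27 and -0.62 in KD2, 0.40 and -1.03 in METTL3 knockdown and 0.18 and -0.34 in METTL14 knockdown, the first block given before the second. These medians are a usage of 1.32 of control in the first block and 0.49 of control in the second in METTL3 knockdown, and of 1.13 and 0.79 in METTL14 knockdown. METTL3 and METTL14 shared their control libraries, as did KD1 and KD2, so the values within a series are not separate evidence. The spread within DDB2, from its lowest to its highest bin, was 1.66 in KD1, 1.87 in KD2, 2.00 in METTL3 knockdown and 0.81 in METTL14 knockdown. Among the 93 single-gene models with at least 5 bins, these spreads ranked 5, 7, 7 and 30 from the widest, and the median spreads of those models were 0.63, 0.69, 0.81 and 0.60. DDB2 was also among the 5 single-gene models with 18 or more bins, and a model with more bins can show a wider spread.

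Changes in DDB2 were lower in most bins of the second block than in the first, without a steady fall towards the 3′ end within the second. In METTL3 knockdown its first bin, 38, had -0.99 and its last, 59, had -0.53. Spearman's rho between the order of the 18 DDB2 bins and their change, taken across both blocks, was -0.77 in KD1, -0.74 in KD2, -0.55 in METTL3 knockdown and -0.55 in METTL14 knockdown. The points share libraries and a gene model, and adjoining bins share reads. Over the 93 models the median rho was 0.03, -0.14, 0.09 and -0.12 in that order, and 13, 13, 17 and 22 of them, DDB2 included, had a rho as low as that of DDB2 or lower. Values below 0 were found in 43, 52, 37 and 51 of the 93 models in the same order. Whether the table as a whole has a common slope along the transcript was not tested.

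FANCA and FANCI belong to the Fanconi anaemia pathway, in which a core complex that includes FANCA marks the FANCI and FANCD2 pair with ubiquitin at stalled forks. FANCA, on the minus strand of chromosome 16, had 6 bins, and only bin 62 went past the threshold. Bin 62 (89836871 to 89836971, 101 bp) had 0.43 in KD1, 0.54 in KD2, 0.69 in METTL3 knockdown and -0.12 in METTL14 knockdown in the authors' deposited table. It was the single bin of the 6 genes that was higher by at least 0.5 in METTL3 knockdown, and it stood on the other side in METTL14 knockdown. The nearest of the 2 listed m6A sites of FANCA, at 89835796, lies 1075 bp downstream of bin 62 in the direction of transcription.

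The other FANCA bins were smaller in change. Bin 87 (89864793 to 89865326), the most 5′ of those listed, had -0.05, 0.21, -0.07 and 0.36 across KD1, KD2, METTL3 and METTL14 knockdown in the authors' deposited table. The highest METTL14 value of the 6 genes was this 0.36 in the authors' deposited table. Towards the 3′ end, bin 16 (89805424 to 89805536) had -0.11, -0.36, -0.38 and -0.35 in this order of knockdowns, as the authors' deposited table lists them, the lowest FANCA values in all 4 columns. The adjoining bins 24 and 23 had 0.04 and -0.05 in KD1, -0.20 and -0.21 in KD2, -0.29 and -0.19 in METTL3 knockdown and -0.17 and -0.15 in METTL14 knockdown in the authors' deposited table. Bin 6 (89804265 to 89804810) had -0.03, -0.21, -0.16 and 0.10 per the authors' deposited table. All 4 bins at the 3′ side were thus below 0 in KD2 and METTL3 knockdown, none of them past the threshold. FANCA overlaps ZNF276, a gene of the opposite strand, in RefSeq's GRCh38 annotation, and FANCI overlaps POLG in the same way.

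FANCI, on the plus strand of chromosome 15, had 3 bins, all below 0 in KD1, KD2 and METTL3 knockdown. Bin 83 (89851324 to 89851523) had -0.70 in KD1, -0.47 in KD2, -0.95 in METTL3 knockdown and -0.08 in METTL14 knockdown in the authors' deposited table. Bin 92 (89859713 to 89860173) was close to 0, with -0.001, -0.06, -0.14 and 0.04 in the authors' deposited table. Bin 95 (89860364 to 89860960), the most 3′ of them, had -0.09, -0.24, -0.81 and 0.22 in the authors' deposited table. METTL3 knockdown thus had 2 of the 3 FANCI bins past the threshold, while the METTL14 values of the gene stayed between -0.08 and 0.22. The one listed m6A site of FANCI, at 89789238, lies 62086 bp upstream of the nearest of these bins.

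MDC1 is a large scaffold that binds phosphorylated histone H2AX beside a break and recruits the ubiquitin ligase RNF8. Its 4 bins, 22 to 25, adjoin each other and form 1 stretch of 792 bp on the minus strand of chromosome 6 (30675343 to 30676134). Their changes ran from -0.18 to -0.11 in KD1, from -0.57 to -0.47 in KD2, from -0.28 to -0.16 in METTL3 knockdown and from 0.03 to 0.11 in METTL14 knockdown in the authors' deposited table. The stretch was below control in KD1, KD2 and METTL3 knockdown and slightly above it in METTL14 knockdown. KD2 was the one column with bins past the threshold, 3 of the 4. Bin 22, the most 3′ and lowest of them in KD2, had -0.18, -0.57, -0.23 and 0.11 across KD1, KD2, METTL3 and METTL14 knockdown in the authors' deposited table. The nearest of the 3 listed m6A sites of MDC1, at 30673021, lies 2322 bp downstream of bin 22. The bins differed from each other by at most 0.12 within a column and, as adjoining stretches, are not 4 separate observations.

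RAD52 anneals complementary single strands and XRCC3 helps the strand exchange step of recombination. RAD52, on the minus strand of chromosome 12, had 2 bins with changes on opposite sides. Bin 4 (1021321 to 1021663) had -0.23 in KD1, -0.25 in KD2, -0.38 in METTL3 knockdown and -0.08 in METTL14 knockdown in the authors' deposited table. Bin 1 (1017416 to 1021103), at 3688 bp the longest bin of the 6 genes and the most 3′ of RAD52, had 0.11, 0.02, 0.09 and 0.05 in the authors' deposited table. Neither bin passed the threshold in any knockdown. The listed m6A site of RAD52, at 1023870, lies 2207 bp upstream of bin 4.

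XRCC3 had a single bin, 24 (chromosome 14, minus strand, 104173553 to 104174765, 1213 bp), with the lowest METTL3 value of the 6 genes. The authors' deposited table gave it 0.17 in KD1, 0.86 in KD2, -1.76 in METTL3 knockdown and -0.07 in METTL14 knockdown. The METTL3 value is a usage of 0.29 of control and ranked 22 from the lowest of the 2635 listed bins, while the KD2 value ranked 55 from the highest. The bin was thus far below control in METTL3 knockdown, close to control in KD1 and METTL14 knockdown, and above it in KD2. It was the one bin of the 6 genes past the threshold on opposite sides in 2 knockdowns. The listed m6A site of XRCC3, at 104179715, lies 4950 bp upstream of the bin. XRCC3 overlaps KLC1, and RAD52 overlaps ERC1, both genes of the opposite strand, in RefSeq's GRCh38 annotation.

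**Figure D3:**
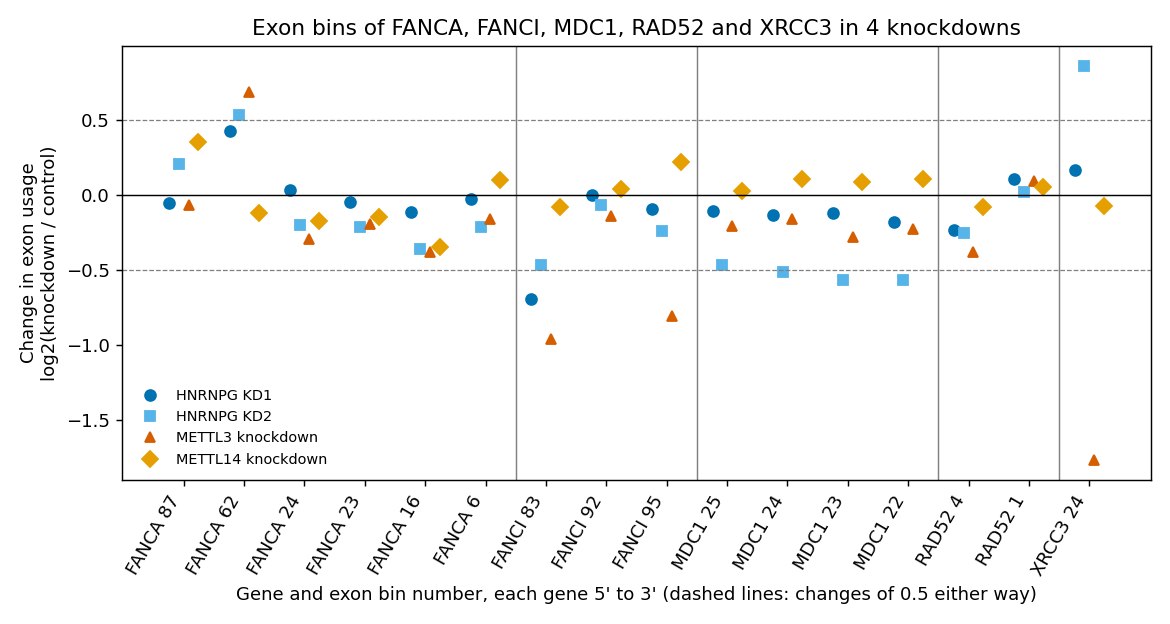
Change in usage, log2 of knockdown over control, of the 16 listed bins of FANCA, FANCI, MDC1, RAD52 and XRCC3, each gene in 5′ to 3′ order, in the 4 knockdowns; dashed lines mark changes of 0.5. FANCA bin 62 is the one bin above 0.5 in METTL3 knockdown, FANCI bins 83 and 95 and XRCC3 bin 24 are below -0.5 in it, and every METTL14 value lies between the dashed lines.

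By gene, the median changes in METTL3 knockdown were -0.81 in DDB2, -0.18 in FANCA, -0.81 in FANCI, -0.22 in MDC1, -0.14 in RAD52 and -1.76 in the one bin of XRCC3, each below the median of all listed bins of -0.04. With a mean weighted by bin length in place of the median, RAD52 stood at 0.0537 instead, since its bins lie on opposite sides. In METTL14 knockdown the medians were -0.23 in DDB2, -0.13 in FANCA, 0.04 in FANCI, 0.10 in MDC1, -0.01 in RAD52 and -0.07 in XRCC3. The length-weighted means there were 0.0594 in FANCA and 0.0429 in RAD52, on the other side of 0 from the medians. KD1 medians were -0.54 in DDB2 and between -0.13 and 0.17 in the other genes. In KD1 the medians of RAD52 and FANCA were below 0, while their length-weighted means were 0.0802 and 0.0003. KD2 medians were -0.47 in DDB2, -0.20 in FANCA, -0.24 in FANCI, -0.54 in MDC1, -0.12 in RAD52 and 0.86 in XRCC3.

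The METTL and HNRNPG series had separate controls, so their columns can be set side by side. METTL3 knockdown and KD1 shared a side of 0 in 32 of the 34 bins (94.1%), against 65.2% of all listed bins, and METTL3 knockdown and KD2 in 32 (94.1%), against 66.7% of all listed bins. DDB2 had all 18 of its bins on the same side in both pairs, and the other 5 genes had 14 of their 16 (87.5%) in each. The exceptions were XRCC3 bin 24 in both pairs, FANCA bin 24 with KD1 and FANCA bin 87 with KD2. With adjoining bins merged into stretches, 19 of the 21 stretches (90.5%) shared a side in each pair, against 65.1% and 66.3% of all stretches. METTL14 knockdown shared a side with KD1 in 22 bins (64.7%) and with KD2 in 24 (70.6%), against 61.4% and 69.9% of all listed bins, and without DDB2 in 5 and 7 of 16. Bins of one gene depend on each other through the gene total, so these counts rest on 6 genes and carry no test.

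**Figure D4:**
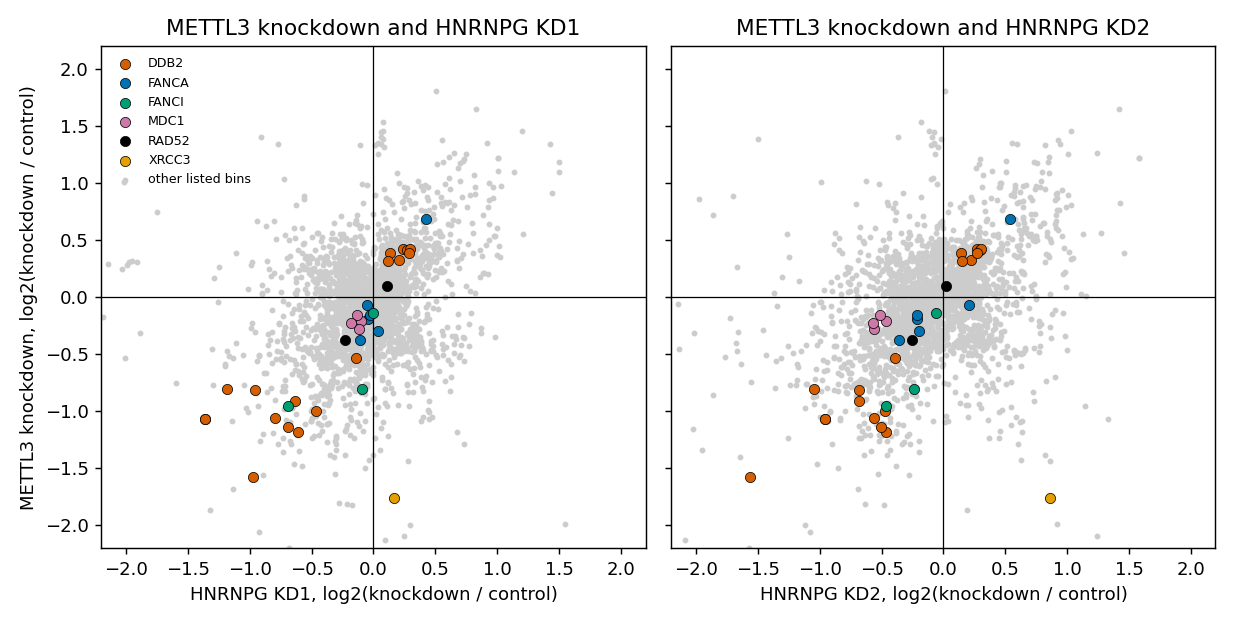
Change in METTL3 knockdown (vertical) against HNRNPG KD1 (left) and KD2 (right), log2 of knockdown over control, for the bins of each of the 6 repair genes (coloured) and all other listed bins (grey); 20 and 25 bins lie beyond the axes at 2.2. DDB2 forms a group in the upper right quadrant and another in the lower left, and the XRCC3 bin lies at the lower right, among a few other listed bins.

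Beyond the 6 genes, a list of 161 symbols from the repair and damage signalling pathways was looked up in the table, and 4 of the other 155 had a single-gene model, with 6 bins in all. By its title the table is limited to HC-m6A-containing genes, and the rule for listing a bin is unknown. Absence from the table therefore says nothing of exon usage. All 6 bins were above 0 in METTL3 and METTL14 knockdown, and 3 of the 6 in KD1 and in KD2. Of all 2635 listed bins, 1228 were above 0 in METTL3 knockdown, 1143 in METTL14 knockdown, 1207 in KD1 and 1136 in KD2. The medians were -0.02 in KD1, -0.07 in KD2, 0.15 in METTL3 knockdown and 0.17 in METTL14 knockdown, against the -0.29 of the 34 bins in METTL3 knockdown. Of the 6 bins, 2 were past the threshold in KD1 (both lower), 2 in KD2 and 2 in METTL3 knockdown (all higher), and 0 in METTL14 knockdown, where all listed bins had 9.03% lower in KD1, 7.78% higher in KD2 and 7.63% higher in METTL3 knockdown. Bins 75 and 76 of APTX adjoin, as do bins 21 and 22 of UBE2V2, so the 6 bins are fewer separate observations. APTX, which clears failed ligation ends from DNA breaks, had 0.21 in KD1, 0.52 in KD2, 0.52 in METTL3 knockdown and 0.22 in METTL14 knockdown in bin 75 and 0.18, 0.55, 0.51 and 0.19 in the adjoining bin 76 in the authors' deposited table.

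UBE2N and UBE2V2 together build the ubiquitin chains used in damage tolerance and at breaks. In the authors' deposited table UBE2N bin 1 had -0.90 in KD1, -0.39 in KD2, 0.10 in METTL3 knockdown and 0.15 in METTL14 knockdown. UBE2V2 bin 22 had -0.63, -0.33, 0.13 and 0.22 in the same order, per the authors' deposited table. Usage of these 2 bins was thus lower in KD1 and KD2 and above 0 in the METTL columns. UBE2V2 bin 21, which adjoins bin 22, had -0.22, -0.24, 0.09 and 0.13, short of the threshold in each column. APEX1, which cuts DNA at sites that have lost a base, had no change past 0.25.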

How the data were processed

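Per the labels' protocols, RNA-seq libraries were made with a stranded mRNA kit. Bowtie 1.0.0 and TopHat 1.1.4, which align reads, stand in the submitters' processing notes beside Cufflinks, Cuffdiff, Trimmomatic and the hg19 build, without roles. The sample descriptions name DEXSeq. For each bin the authors deposited a log2 value, control divided by knockdown, per the file headers. The title of the deposited table limits it to HC-m6A-containing genes. Beyond that, the sources used here give no scaling, no DEXSeq version and no rule for listing a bin. The depth per library is unknown.

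Here signs were turned and bins were matched to genes by name. Bins past 0.5 were counted and medians taken, with Python 3.11.15, numpy 2.4.6, pandas 2.3.3 and matplotlib 3.10.9. Counting was tested on simulated data. Each gene was named with every listed bin given or counted, and genes of the wider list with a bin past 0.5 were named, APEX1 being added. Some genes of the wider list are not reported here and were left out of its counts. The members and lists were chosen with earlier results of these data known. A planned count of bins on one side in all 4 columns is not given, because columns within a series share controls. Alternatives covered the size of change, bin length, centring, a length-weighted mean in place of the median, and joined gene models. Merged bins and DDB2 left out were chosen after seeing the data. All 6 symbols matched RefSeq.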

Additional observations from a re-analysis of the deposited data

How the results depend on the processing

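Most counts of bins past the threshold followed the size chosen. At 0.25, KD1 had 4 higher (11.8%, against 16.7% of all listed bins), KD2 6 higher (17.6%, against 18.3%) and 18 lower (52.9%, against 32.6%), METTL3 knockdown 8 higher (23.5%, against 20.4%), and METTL14 knockdown 1 higher (2.94%, against 14.3%) and 10 lower (29.4%, against 25.7%). Lower bins at 0.25 stayed within 1.5 times of the main count in KD1, with 11 (32.4%, against 23.5%), and in METTL3 knockdown, with 18 (52.9%, against 32.1%). At 1, KD1 had 3 lower (8.82%, against 1.67% of all listed bins), KD2 0 higher (against 0.949%) and 2 lower (5.88%, against 3%), METTL3 knockdown 0 higher (against 1.78%) and 7 lower (20.6%, against 3.95%), and METTL14 knockdown 0 lower (against 1.71%). Leaving out bins under 20 bp kept all 8 counts within 1.5 times, and centring on the median of all bins did so for 7 of 8, the exception being 7 lower in KD2. The 3 bins lower by 1 in KD1 were DDB2 bins 56, 57 and 58, which adjoin. With adjoining bins merged, 5 of 21 stretches were lower by 0.5 in KD1, 5 in KD2 and 9 in METTL3 knockdown. At 1, merged stretches gave 0 lower in KD1, 0 in KD2 and 3 (14.3%) in METTL3 knockdown, against 1.4%, 2.69% and 3.98% of all stretches. Without DDB2, 1 was lower in KD1, 3 in KD2, 3 in METTL3 knockdown and 0 in METTL14 knockdown. Gene values stayed within 0.1 of the main median in 66 of 72 recalculations. A mean weighted by bin length, taken in place of the median, gave the other 6, so the statistic changed along with the weights. They were RAD52 at 0.0802 in KD1, -0.0049 in KD2 and 0.0537 in METTL3 knockdown, FANCA at -0.053 in KD2 and 0.0594 in METTL14 knockdown, and FANCI at -0.58 in METTL3 knockdown. The weighted mean had the opposite sign to the median in 5 cases. These were RAD52 in KD1, METTL3 and METTL14 knockdown (0.0429) and FANCA in KD1 (0.0003) and METTL14 knockdown. Centring changed the sign of the RAD52 median in METTL14 knockdown (0.0315). All of these values were below the threshold in size. With joined models, 1 of 13 wider-list bins was higher by at least 0.5 in METTL14 knockdown, against 5.46% of all listed bins. It was bin 12 (61584018 to 61584168) of a model that joins FEN1 with FADS2. Which of these genes the bin belongs to was not analysed, so it may not be a repair gene bin. No paired analysis was possible because no value per library was used, and for the same reason no replicate was left out in turn. Without depth or a spread between libraries, bins of 1 bp and of 1664 bp could not be weighed by their precision.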
